A study of Mus musculus with 6 samples.

Results

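Expression of 48 genes of glutathione metabolism and the NRF2 antioxidant response was compared between livers of WT and β-cateninΔ(ex3)/+ mice. The genes were taken by their symbols from a table of 31950 genes and comprise 18 cytosolic and kappa glutathione S-transferases (GSTs), 3 microsomal GSTs, 5 genes of glutathione synthesis and turnover, 3 glutathione peroxidases, *Nfe2l2* and *Keap1*, 6 further NRF2 targets, 4 genes of the thioredoxin system, 4 peroxiredoxins, and 3 genes for superoxide dismutases and catalase. Poly(A) RNA was sequenced from 3 WT and 3 β-cateninΔ(ex3)/+ livers, 1 library per liver, and the labels give C57BL/6 as the strain and 8 weeks as the age of all 6 mice. The mutant mice carry 1 allele of *Ctnnb1*, which encodes β-catenin, without exon 3, the part of the protein at which it is marked for destruction. The labels name neither the Cre nor any treatment. For livers under this genotype name the study's methods describe a tamoxifen-dependent Cre under the *Alb* promoter, which removes exon 3 in hepatocytes and leaves the other cells of the liver unrecombined. Whether the sequenced livers came from those mice, and whether the WT mice had a Cre or tamoxifen, is not given in the sources used here.

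Glutathione is a tripeptide thiol held at high concentration in hepatocytes. GSTs couple it to reactive compounds, glutathione peroxidases spend it on peroxides, and glutathione reductase recovers it with NADPH. The transcription factor NRF2, encoded by *Nfe2l2*, is kept low by KEAP1 and, once released, raises many of these genes through antioxidant response elements (AREs). In liver, several GSTs, together with glutamine synthetase, are more abundant around the central vein, the zone in which β-catenin is active.

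The deposited values are FPKM, that is, fragments per unit of transcript length and of library size, and levels of different genes are compared below on that scale. *Ctnnb1* itself had 25.9 to 28.0 FPKM in WT and 25.04 to 25.4 FPKM in β-cateninΔ(ex3)/+ livers; values per gene do not show whether exon 3 is present. Of 10 listed β-catenin target genes, 6 were higher by at least 2-fold, among them *Glul* and *Oat*, against 8.17% of all genes tested. By the adjusted p, 9 were higher and 1, *Cyp2e1*, was lower (1672 ± 118 FPKM in WT and 1422 ± 12.2 FPKM in mutant livers, SD, n = 3). The groups also differed in ways that the labels do not name. *Xist* had 20.3 to 22.2 FPKM in WT and at most 0.0146 FPKM in mutant livers, and the Y-linked *Eif2s3y* had 9.20 to 9.94 FPKM in mutant and at most 0.0169 FPKM in WT livers, so sex and genotype cannot be told apart. All 7 genes of a fetal liver list were lower in mutant livers, their summed level being 3847 to 3913 FPKM in WT against 6.72 to 7.56 FPKM, which goes against the age of 8 weeks in the labels of the WT livers, since these genes are largely silent in the adult; *Igf2* was listed at 0 in every mutant liver. Summed hepatocyte markers fell from a range of 72782 to 76143 FPKM to one of 37016 to 37315 FPKM, a sum made up mostly of *Alb*, *Apoa1* and *Ttr*. Of the 7 hepatocyte markers tested 5 were lower by the adjusted p and 1, *Cps1*, was higher (89.02 ± 2.60 against 177 ± 2.48 FPKM; SD, n = 3); *Apob* had 25.9 to 27.7 FPKM in WT and 43.3 to 149 FPKM in mutant livers and did not pass. Summed markers of erythroid, stellate, endothelial and lymphoid cells and of cholangiocytes were also lower in every mutant liver, while those of Kupffer and myeloid cells were higher (333 to 344 against 565 to 574 FPKM). By the adjusted p, all erythroid, stellate and endothelial markers tested were lower. Of 6 lymphoid markers tested, 3 were lower and *Nkg7* was higher. Of 4 cholangiocyte markers tested, 2 were lower, and *Spp1* made up most of that sum (36.7 of 41.4 FPKM in WT). Of 8 Kupffer and myeloid markers, 6 were higher and *S100a8* was lower. Among all genes tested, 37.4% were higher and 19.6% lower. In RNA of a whole tissue, fewer cells of a type and less RNA per cell cannot be told apart, and the part of these differences in the results below was not tested.

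Of the 48 genes, 47 passed a filter of a mean of at least 0.5 FPKM and were tested with limma on log2(FPKM + 1) among 13243 genes. *Ggt1*, which encodes the γ-glutamyltransferase that cleaves glutathione outside the cell, did not pass, with at most 0.0740 FPKM in any liver. A gene was called when its adjusted p was below 0.05 and its fold change at least 2 on this scale, which understates the change of low genes; genes past the adjusted p alone are described as higher or lower under 2-fold. Of the 47 genes, 14 were called higher and 2 lower in β-cateninΔ(ex3)/+ livers, against 8.17% and 4.52% of all genes tested (12.7% in either direction); for the 47 genes the shares were 29.8% and 4.26%. By the adjusted p alone, 41 of 47 differed against 57.0% of all genes tested; 32 were higher and 9 lower, against 37.4% and 19.6%. In 42 of 47 genes the 2 groups did not overlap, against 66.0% of all genes tested; the mutant livers were all above the WT livers in 32 and all below in 10, against 43.0% and 23.0%. At an absolute log2 fold change of at least 1.5, 9 members were higher and 1 lower, against 3.93% and 1.80%. The median log2 fold change was 0.77 for the 47 genes and 0.14 for all genes tested. Summed over the 48 genes, the level was 2858 to 3425 FPKM in WT and 6550 to 6760 FPKM in mutant livers, a ratio of means of 2.07. The higher calls were 8 of 18 cytosolic and kappa GSTs and 6 of the 29 other genes tested; both lower calls, *Hmox1* and *Txnip*, lay outside the GSTs. Of the higher calls, 5 or 6 were lost under another scaling: with median-ratio scaling, which moves the median of all genes to 0.0081, 9 members were higher and 3 lower (851 and 751 of all genes, in place of 1082 and 598), and with quantile normalization 8 were higher and 3 lower (797 and 812 of all genes).

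**Figure D1:**
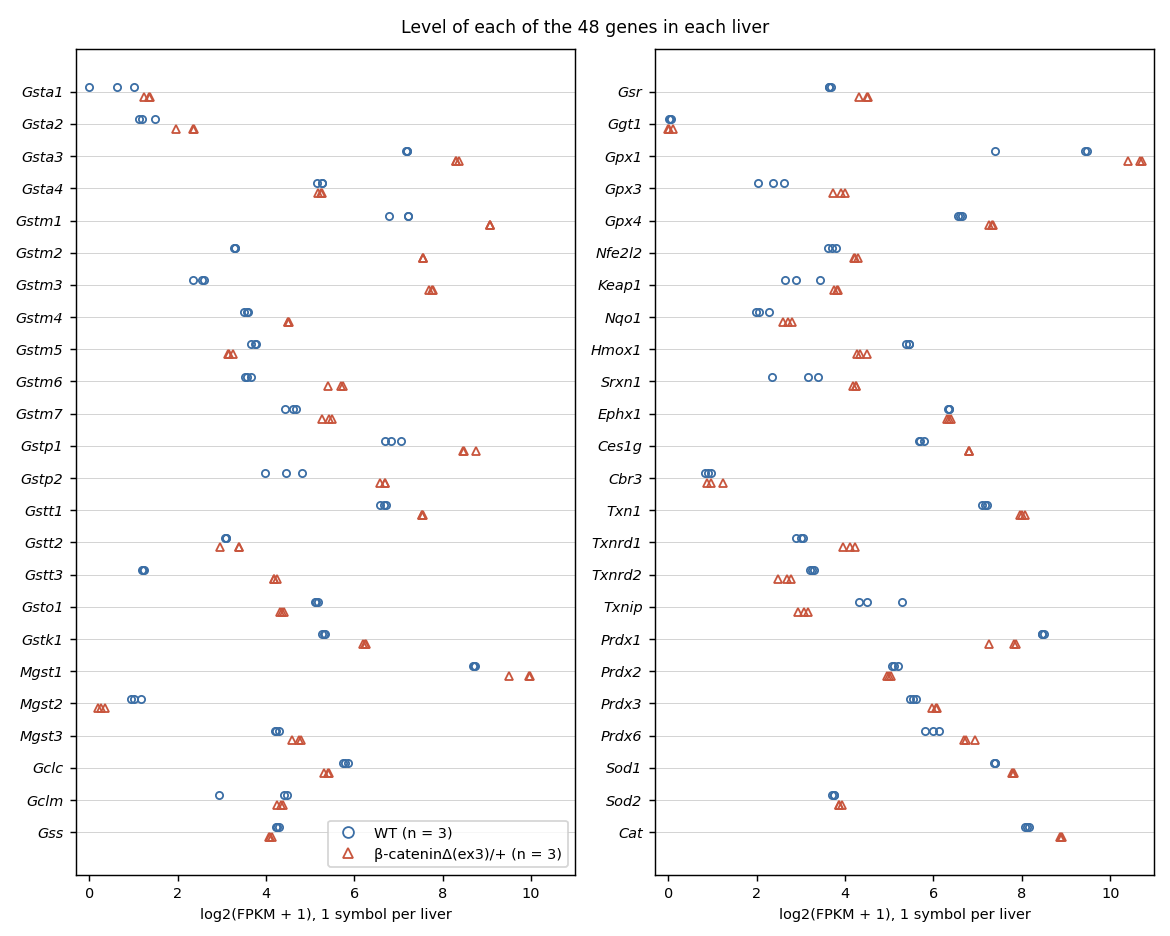
Level of each of the 48 genes as log2(FPKM + 1) on the x axis, with 1 circle per WT liver and 1 triangle per β-cateninΔ(ex3)/+ liver (3 of each). The triangles lie to the right of every circle in 32 of the 47 genes tested and to the left in 10; *Gstm2*, *Gstm3* and *Gstt3* are the most widely separated, and single WT livers stand apart in *Gpx1*, *Gclm* and *Srxn1*.

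**Figure D2:**
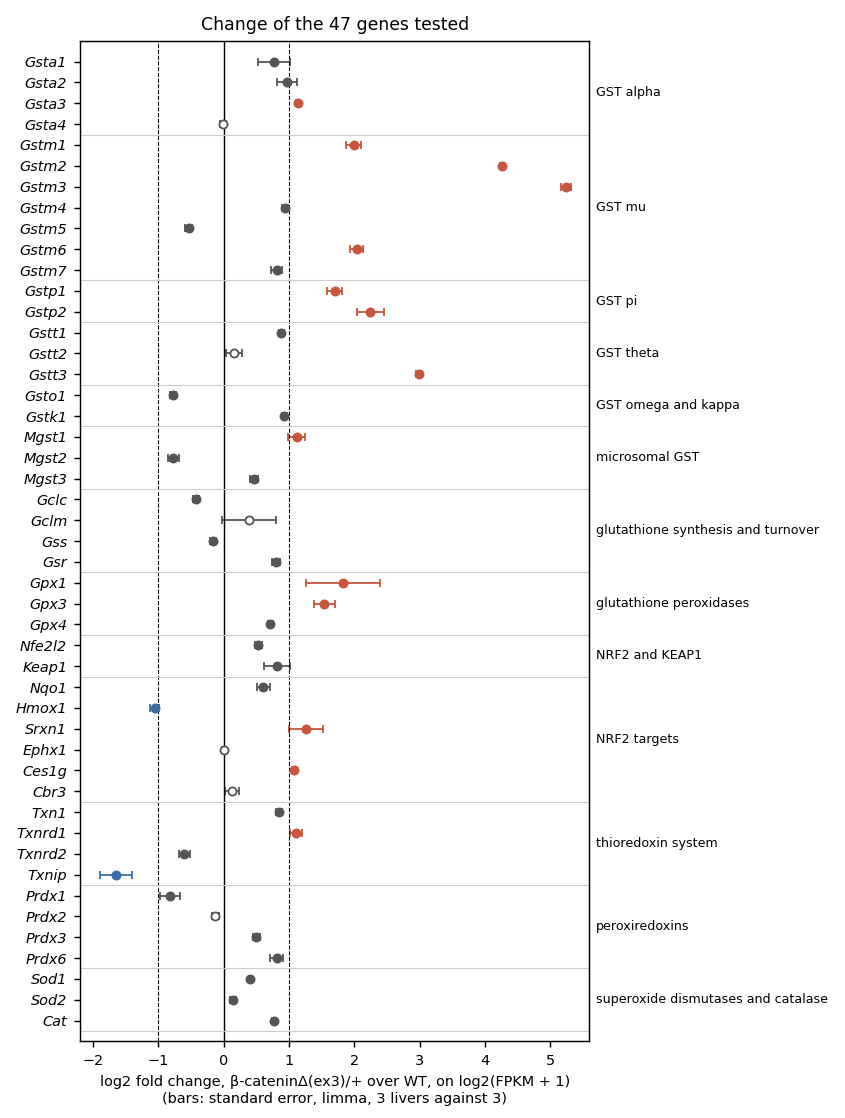
Log2 fold change (β-cateninΔ(ex3)/+ over WT, on log2(FPKM + 1)) of the 47 genes tested, grouped by role, with bars of 1 standard error from limma over 3 livers against 3; dashed lines mark a 2-fold change. Red marks the 14 genes called higher, blue the 2 called lower, grey those with an adjusted p below 0.05 under 2-fold, and open symbols the 6 that did not pass. The largest increases are in GST mu, led by *Gstm3* at 5.24.

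Promoters were read from RefSeq (GRCm38.p6) as 300 bases around an annotated start site, 250 before it and 50 after it, and 42 of the 48 genes had at least 1 such window. AREs were searched as TGACNNNGC and TCF/LEF sites, the sequence through which β-catenin's DNA-binding partners act, as CTTTGAA or CTTTGAT, both on both strands. Sequence outside these windows was not searched, so a gene without a match here may hold a site elsewhere. An ARE match was present in 11 of the 42 genes (26.2%), against 14.0% of 27025 genes with a window. A TCF/LEF match was present in 3 of 42 (7.14%), against 9.88%. The 3 were *Gstm3* and *Txnrd1*, both called higher, and *Ggt1*, which was too low to be tested. Of the 11 genes with an ARE match, 10 were tested, and by the adjusted p 7 were higher and 2 lower, where 37.4% and 19.6% of all genes tested were. Of all 47 members tested, 68.1% were higher and 19.1% lower, so the genes with a match were near the members as a whole. *Gsta3*, *Mgst1*, *Srxn1* and *Txnrd1* were called higher, *Gstm7*, *Nfe2l2* and *Sod1* were higher under 2-fold, *Prdx1* and *Gstm5* were lower under 2-fold, *Gclm* did not pass and *Ggt1* was not tested. The following stretches hold matches from genes called higher and from genes lower under 2-fold, with the matched bases in capitals. Each sequence is given 5′ to 3′ on the strand of its gene. A match says that the letters are present, not that a factor binds.
*Gstm3*, TCF/LEF at -135 to -129 from the start site, chr3:107969278-107969334 (minus strand): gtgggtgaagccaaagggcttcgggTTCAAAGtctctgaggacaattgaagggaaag
*Gsta3*, ARE at -121 to -113, chr1:21240439-21240497 (plus strand): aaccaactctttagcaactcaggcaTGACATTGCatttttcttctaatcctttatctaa
*Mgst1*, ARE at -56 to -48, chr6:138140446-138140504 (plus strand): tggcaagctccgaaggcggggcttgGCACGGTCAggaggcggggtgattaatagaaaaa
*Txnrd1*, TCF/LEF at -228 to -222 and ARE at -92 to -84, chr10:82858956-82859147 (plus strand): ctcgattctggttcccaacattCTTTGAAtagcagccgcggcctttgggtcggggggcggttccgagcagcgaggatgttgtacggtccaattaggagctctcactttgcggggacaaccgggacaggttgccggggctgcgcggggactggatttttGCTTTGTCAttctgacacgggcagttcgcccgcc
*Prdx1*, ARE at -133 to -125, chr4:116685441-116685499 (plus strand): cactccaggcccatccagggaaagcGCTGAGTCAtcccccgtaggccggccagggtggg
*Gstm5*, ARE at -42 to -34, chr3:107895787-107895845 (plus strand): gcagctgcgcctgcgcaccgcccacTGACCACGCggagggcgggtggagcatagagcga

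The mu class of GSTs, 7 genes side by side on chromosome 3 that conjugate epoxides and other electrophiles, changed most. Its summed level was 181, 220 and 216 FPKM in the WT livers and 1032, 1059 and 1071 FPKM in the mutant livers, a ratio of means of 5.12. *Gstm1*, *Gstm2*, *Gstm3* and *Gstm6* were called higher, *Gstm4* and *Gstm7* were higher under 2-fold, and *Gstm5* was lower under 2-fold. None of the 7 genes overlapped between the groups, and none changed direction under another scaling. *Gstm3* (107963696 to 107969283) had 4.90, 5.05 and 4.09 FPKM in WT and 204, 214 and 219 FPKM in β-cateninΔ(ex3)/+ livers. *Gstm2* (107981702 to 107986453) had 8.81, 8.74 and 8.85 FPKM in WT and 186, 188 and 186 FPKM in mutant livers. These 2 low genes of the WT liver thus reached 45.4 and 21.2 times their WT means, above every WT level of *Gstm1*, which was the leading mu gene in all 6 livers. The log2 fold change was 5.24 for *Gstm3* (SE 0.075, limma adjusted p = 9.91e-08) and 4.26 for *Gstm2* (SE 0.031, limma adjusted p = 8.94e-09), ranks 41 and 62 among the increases of all genes tested.

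*Gstm1* (108012255 to 108017973) had 109.7, 149 and 148 FPKM in WT and 533.5, 534 and 539 FPKM in mutant livers. WT replicate 1 was the lowest, and the mutant livers were nearly alike, with a log2 fold change of 1.99 (SE 0.12, limma adjusted p = 3.73e-05). *Gstm6* had 10.5, 10.8 and 11.6 FPKM in WT and 41.5, 51.1 and 52.7 FPKM in mutant livers, with a log2 fold change of 2.04 (SE 0.099, limma adjusted p = 1.49e-05). The class therefore changed in composition: *Gstm1* made up 65.5 ± 4.31% of the summed mu FPKM in WT and 50.8 ± 0.739% in mutant livers (SD, n = 3), *Gstm3* 2.30 ± 0.405% and 20.2 ± 0.354%, and *Gstm2* 4.31 ± 0.482% and 17.7 ± 0.335%. *Gstm5*, at the end of the cluster and on the opposite strand to the other mu genes, was 12.2 ± 0.601 FPKM in WT and 8.12 ± 0.407 FPKM in mutant livers (SD, n = 3), with a log2 fold change of -0.54. Near-identical sequence limits the split among these genes: of the 100-base stretches of the longest coding transcript, 13.8% of *Gstm3*, 7.73% of *Gstm1*, 2.41% of *Gstm6* and 0.622% of *Gstm2* occurred in another gene. Among the sharing genes, the pseudogene *Gstm2-ps1* had 5.84 to 8.33 FPKM in WT and 42.0 to 46.7 FPKM in mutant livers, and *Gm8834* had 1.74 to 2.78 and 17.3 to 24.4 FPKM.

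**Figure D3:**
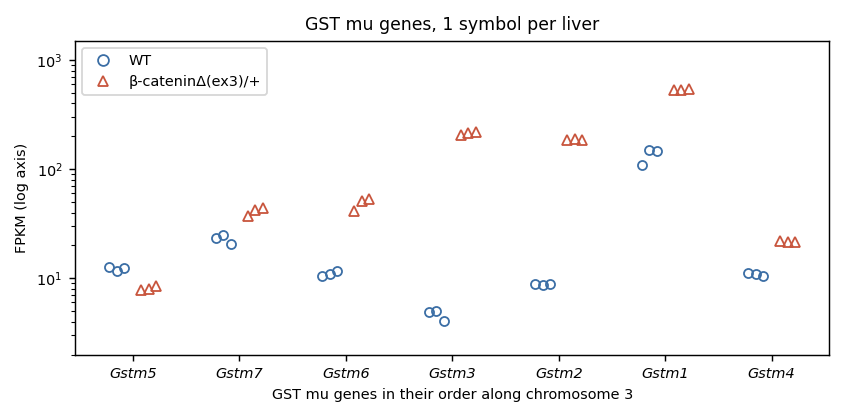
FPKM (log axis) of the 7 GST mu genes in their order along chromosome 3, with 1 circle per WT liver and 1 triangle per β-cateninΔ(ex3)/+ liver. *Gstm3* and *Gstm2*, in the middle of the row, rise from under 10 FPKM to at least 186 FPKM, while *Gstm5* at the left end is lower in every mutant liver.

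The pi class, GSTs with broad activity, had 124 to 159 FPKM in WT and 452 to 531 FPKM in mutant livers, summed over *Gstp1* and *Gstp2*, a ratio of means of 3.49. *Gstp1* (chromosome 19, 4035407 to 4037985) had 103, 113 and 132 FPKM in WT and 358, 428 and 349.5 FPKM in mutant livers. *Gstp2* (4040285 to 4046023) had 20.9, 14.7 and 27.4 FPKM in WT and 95.3, 102 and 103 FPKM in mutant livers. Every mutant liver lay above every WT liver in both, with log2 fold changes of 1.70 for *Gstp1* (SE 0.12, limma adjusted p = 6.55e-05) and 2.24 for *Gstp2* (SE 0.21, limma adjusted p = 2.39e-04). The values of the 2 genes are uncertain singly, since 52.8% of the 100-base stretches of *Gstp1* and 63.5% of those of *Gstp2* occurred in another gene. The pseudogene *Gstp-ps*, which shares them, had 17.9 to 19.2 FPKM in WT and 91.95 to 102 FPKM in mutant livers. The third pi gene of the mouse, *Gstp3*, shared none of its stretches and went the other way. It had 173, 177 and 179.6 FPKM in WT and 33.2, 31.6 and 35.6 FPKM in mutant livers, a log2 fold change of -2.37 (SE 0.050, limma adjusted p = 4.66e-07). Over all 3 pi genes the ratio of summed means was 1.63, so the sum for the class depends on whether *Gstp3* is counted.

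The theta class, which acts on small halogenated compounds, had 104 to 112 FPKM in WT and 209.6 to 213 FPKM in mutant livers, a ratio of means of 1.94. *Gstt3* (chromosome 10, 75774115 to 75781414) had 1.29, 1.35 and 1.33 FPKM in WT and 17.3, 17.2 and 18.01 FPKM in mutant livers. Its groups were far apart, with a 13.2-fold difference of means and a log2 fold change of 2.99 (SE 0.046, limma adjusted p = 1.34e-07). Of its 100-base stretches, 23.9% were shared with *Gm20441*, which was listed at 0 in every liver. *Gstt1* carried most of the class, with 99.9 ± 4.44 FPKM in WT and 185 ± 1.84 FPKM in mutant livers (SD, n = 3), a log2 fold change of 0.88. *Gstt2* had 7.40 to 7.51 FPKM in WT and 6.74 to 9.47 FPKM in mutant livers and did not pass (limma adjusted p = 0.319), except without mutant replicate 1 (0.30, adjusted p = 0.00555).

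The alpha class, GSTs that also reduce lipid peroxides, had 180.4 to 184 FPKM in WT and 356 to 369 FPKM in mutant livers, a ratio of means of 1.97. *Gsta3*, which made up 78.9 ± 0.547% of the class in WT and 88.4 ± 0.473% in mutant livers (SD, n = 3), carried the difference. It had 143, 144 and 144 FPKM in WT and 328, 315 and 313 FPKM in mutant livers, with no overlap and a log2 fold change of 1.14 (SE 0.030, limma adjusted p = 1.06e-06). With median-ratio scaling it was 0.95 and with quantile normalization 0.93, below a 2-fold change. *Gsta4*, which acts on the lipid aldehyde 4-hydroxynonenal, had 34.8 to 37.8 FPKM in WT and 35.01 to 37.4 FPKM in mutant livers and did not pass (limma adjusted p = 0.926), though it was lower with median-ratio scaling (-0.20, adjusted p = 0.0193) and quantile normalization (-0.27, adjusted p = 0.00659). *Gsta1* (0 to 1.01 FPKM in WT and 1.34 to 1.60 FPKM in mutant livers) and *Gsta2* (1.17 to 1.78 and 2.92 to 4.18 FPKM) were low, higher under 2-fold, and uncertain, since 81.8% and 35.02% of their 100-base stretches occurred in other genes; leaving out single livers took *Gsta1* to an adjusted p of up to 0.101, and both other scalings took it past 0.05.

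Outside these classes, the mitochondrial *Gstk1* was higher under 2-fold, with 38.6 ± 0.893 FPKM in WT and 74.3 ± 1.66 FPKM in mutant livers (SD, n = 3), a log2 fold change of 0.93. *Gsto1*, whose product reduces dehydroascorbate and arsenicals, was lower under 2-fold, with 34.2 ± 0.758 and 19.6 ± 0.587 FPKM and a log2 fold change of -0.78. Among the microsomal GSTs, *Mgst1*, a membrane enzyme that also reduces lipid peroxides, had the highest level of the 21 transferases in every liver. It had 409, 421 and 414 FPKM in WT and 1007, 997 and 727 FPKM in mutant livers. Mutant replicate 3 was the lowest of its group and still above all WT livers, and the log2 fold change was 1.12 (SE 0.13, limma adjusted p = 6.21e-04), or 0.92 with median-ratio scaling and 0.93 with quantile normalization. *Mgst3* was higher under 2-fold, from 17.96 ± 0.713 to 25.2 ± 1.87 FPKM (SD, n = 3), but not with quantile normalization (0.16, adjusted p = 0.0974). *Mgst2* fell from 1.06 ± 0.163 to 0.208 ± 0.0672 FPKM (SD, n = 3), 5.10 times by the means but a log2 fold change of -0.77 on a scale that compresses such low values; a pseudocount of 0.1 gave -1.93 and a lower call.

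**Figure D4:**
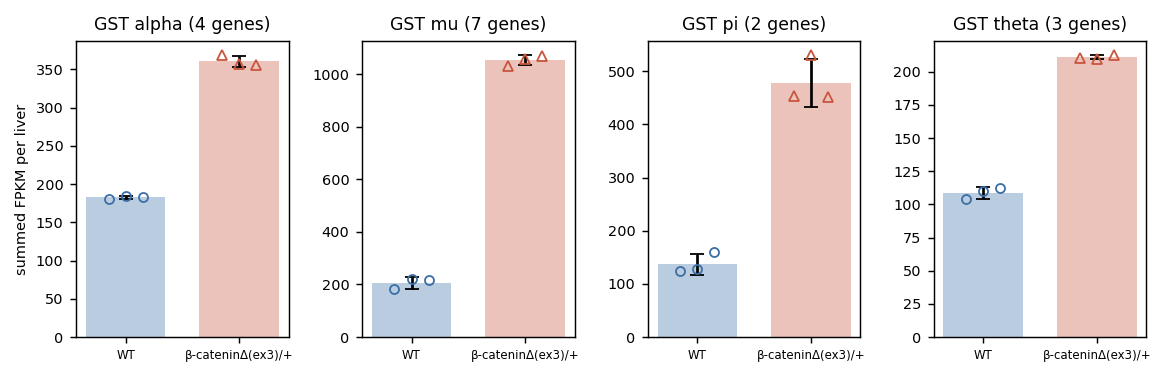
Summed FPKM per liver of the GST alpha, mu, pi (*Gstp1* and *Gstp2*) and theta genes among the 48, with a bar for the mean, an error bar for the SD of 3 livers and 1 symbol per liver; each panel has its own axis from 0. The mutant livers lie above all WT livers in the 4 classes, with ratios of means of 1.97, 5.12, 3.49 and 1.94.

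Of the 4 genes of glutathione synthesis and turnover tested, 0 were called by limma at both thresholds, against 12.7% of all genes; at an unadjusted p below 0.05, as by the adjusted p, 1 was higher and 2 were lower. *Gclc*, the catalytic subunit of the rate-limiting glutamate-cysteine ligase, had 52.9, 56.7 and 54.7 FPKM in WT and 38.9, 41.7 and 41.1 FPKM in mutant livers. It was lower under 2-fold in every mutant liver, with a log2 fold change of -0.42 (SE 0.045, limma adjusted p = 4.41e-04). *Gclm*, the modifier subunit of the same enzyme, had 21.1, 20.2 and 6.70 FPKM in WT and 18.001, 19.3 and 19.9 FPKM in mutant livers. WT replicate 3 stood apart and the groups overlapped; the log2 fold change was 0.39 (SE 0.41, limma adjusted p = 0.456), and without that liver it was -0.11 (adjusted p = 0.192). *Gss*, the synthetase that completes the tripeptide, had 17.7, 18.1 and 18.6 FPKM in WT and 16.07, 15.7 and 16.5 FPKM in mutant livers, a log2 fold change of -0.16 (SE 0.042, limma adjusted p = 0.0174). The adjusted p missed the threshold without WT replicate 3 (adjusted p = 0.0596) or without mutant replicate 2 (adjusted p = 0.0537). *Gsr*, the reductase that recovers glutathione, had 11.8, 11.5 and 11.33 FPKM in WT and 21.8, 19.03 and 21.7 FPKM in mutant livers. It was the one gene of this group higher in every mutant liver, with a log2 fold change of 0.80 (SE 0.062, limma adjusted p = 1.15e-04), under 2-fold.

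*Gpx1*, *Gpx3* and *Gpx4* were higher in every mutant liver, as were 43.0% of all genes tested. Of the related genes outside the 48, *Gpx7* (9.46 ± 0.345 FPKM in WT and 4.41 ± 0.422 FPKM in mutant livers; SD, n = 3) and *Gpx8* (3.80 ± 0.808 and 1.86 ± 0.314 FPKM), both of the endoplasmic reticulum and named after their values were seen, were lower under 2-fold on the log scale, with log2 fold changes of -0.95 and -0.74. *Gpx1*, the main cytosolic peroxidase of liver, had 692, 167 and 712 FPKM in WT and 1681, 1353 and 1635 FPKM in mutant livers. WT replicate 2 was 4.27-fold below the highest WT liver, and the log2 fold change of 1.83 (SE 0.57, limma adjusted p = 0.0349) fell to 1.14 (SE 0.10, adjusted p = 7.20e-04) without it. The call was lost without any 1 of the 3 mutant livers (adjusted p = 0.0711 to 0.0912) and under both other scalings (adjusted p = 0.0511 and 0.0529). *Gpx3*, the secreted plasma form, had 5.12, 3.06 and 4.15 FPKM in WT and 15.02, 12.1 and 14.04 FPKM in mutant livers, with no overlap and a log2 fold change of 1.54 (SE 0.16, limma adjusted p = 4.19e-04). *Gpx4*, which reduces phospholipid peroxides and guards against ferroptosis, was higher under 2-fold, with 95.6 ± 2.88 FPKM in WT and 157 ± 5.01 FPKM in mutant livers (SD, n = 3); 48.4% of its 100-base stretches were shared with the pseudogene *Gpx4-ps2*.

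*Nfe2l2* and its inhibitor *Keap1* were both higher under 2-fold. *Nfe2l2* had 11.25, 12.8 and 12.0 FPKM in WT and 17.5, 17.6 and 18.4 FPKM in mutant livers. The groups were apart, with a log2 fold change of 0.53 (SE 0.057, limma adjusted p = 4.70e-04). Over the alternative settings the log2 fold change of *Nfe2l2* was as low as 0.23, with a limma adjusted p of up to 0.0231. *Keap1* had 5.27, 6.42 and 9.82 FPKM in WT and 13.1, 13.4 and 12.5 FPKM in mutant livers. WT replicate 3 was nearest to the mutant livers, and the log2 fold change of 0.81 (SE 0.20, limma adjusted p = 0.0137) was 1.04 without it. With quantile normalization it was 0.56 and missed the threshold (adjusted p = 0.0585). Both are levels of RNA, and NRF2 is controlled chiefly through the stability of its protein, which was not measured.

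Genes known as NRF2 targets went in different directions. *Nqo1*, the quinone reductase used as a standard readout of NRF2, had 3.13, 3.81 and 2.94 FPKM in WT and 5.58, 5.97 and 5.04 FPKM in mutant livers. It was higher in every mutant liver but under 2-fold, with a log2 fold change of 0.61 (SE 0.097, limma adjusted p = 0.00256). *Srxn1*, which repairs over-oxidised peroxiredoxins, had 9.42, 4.12 and 7.995 FPKM in WT and 18.1, 17.9 and 17.1 FPKM in mutant livers. WT replicate 2 was the lowest, and the log2 fold change of 1.26 (SE 0.26, limma adjusted p = 0.00753) was 0.95 without it. *Srxn1* was also under 2-fold with quantile normalization. *Ces1g*, a carboxylesterase of lipid and drug metabolism, had 50.05, 54.04 and 50.6 FPKM in WT and 111, 110.5 and 109.9 FPKM in mutant livers. Its groups were narrow and apart, with a log2 fold change of 1.08 (SE 0.039, limma adjusted p = 4.35e-06), or 0.89 with median-ratio scaling and 0.84 with quantile normalization.

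*Hmox1*, the heme oxygenase that opens the heme ring, was the one NRF2 target called lower. It had 42.9, 42.7 and 40.6 FPKM in WT and 19.1, 18.4 and 21.6 FPKM in mutant livers. All mutant livers lay below all WT livers, with a log2 fold change of -1.06 (SE 0.067, limma adjusted p = 4.64e-05). The gene is also active in macrophages that take up red cells. Of 8 Kupffer and myeloid markers, 3 were called higher and 1 lower, against 8.17% and 4.52% of all genes tested. By the adjusted p alone, 6 were higher and 1 lower, against 37.4% and 19.6%. Of 7 erythroid markers tested, 5 were called lower, with sums of 3306 to 3648 FPKM in WT and 1809 to 1871 FPKM in mutant livers. The part of these markers in the *Hmox1* difference was not tested. *Ephx1*, the microsomal epoxide hydrolase, had 78.9 to 81.0 FPKM in WT and 78.1 to 83.4 FPKM in mutant livers, and *Cbr3*, a carbonyl reductase, had 0.782 to 0.957 and 0.836 to 1.37 FPKM. Neither passed (limma adjusted p = 0.887 and 0.368), though *Ephx1* was lower with median-ratio scaling (-0.19, adjusted p = 0.00641) and quantile normalization (-0.27, adjusted p = 0.00154).

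In the thioredoxin system, which reduces protein disulfides, the cytosolic genes were higher and the mitochondrial reductase and the inhibitor lower. *Txnrd1*, the cytosolic thioredoxin reductase, had 7.05, 6.38 and 7.32 FPKM in WT and 17.6, 14.4 and 16.2 FPKM in mutant livers. The groups were apart, with a log2 fold change of 1.11 (SE 0.087, limma adjusted p = 1.16e-04), or 0.93 with median-ratio scaling and 0.84 with quantile normalization. *Txnip*, which binds thioredoxin and limits glucose uptake, had 38.05, 21.7 and 19.001 FPKM in WT and 7.38, 6.64 and 7.99 FPKM in mutant livers. WT replicate 1 was the highest, and the log2 fold change of -1.65 (SE 0.25, limma adjusted p = 0.00215) was -1.36 without it. *Txn1*, thioredoxin itself, was higher under 2-fold (142 ± 5.20 FPKM in WT and 257 ± 10.5 FPKM in mutant livers; SD, n = 3), and *Txnrd2*, the mitochondrial reductase, was lower under 2-fold (8.48 ± 0.320 and 5.27 ± 0.655 FPKM).

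The peroxiredoxins, which reduce peroxides at the expense of thioredoxin or glutathione, summed to 486 to 499 FPKM in WT and 353 to 439 FPKM in mutant livers. *Prdx1*, the most abundant of them, accounted for the lower sum, with 348, 360.0 and 352 FPKM in WT and 153, 231 and 225 FPKM in mutant livers. Mutant replicate 1 was the lowest, and the log2 fold change was -0.82 (SE 0.16, limma adjusted p = 0.00581), or -0.63 without that liver and -1.01 with median-ratio scaling. *Prdx6*, which uses glutathione, and the mitochondrial *Prdx3* were higher under 2-fold, with log2 fold changes of 0.81 and 0.50. *Prdx2*, abundant in red cells, had 32.3 to 35.8 FPKM in WT and 29.9 to 31.7 FPKM in mutant livers and did not pass (limma adjusted p = 0.0764), though it was lower with median-ratio scaling (-0.32, adjusted p = 0.0036) and quantile normalization (-0.40, adjusted p = 0.00135). *Cat*, the catalase of peroxisomes, had 276 ± 7.25 FPKM in WT and 472.5 ± 5.34 FPKM in mutant livers (SD, n = 3), a log2 fold change of 0.77, and the cytosolic *Sod1* had a log2 fold change of 0.41. The mitochondrial *Sod2* was at 0.15 (limma adjusted p = 0.0270), missed that threshold without any 1 of 5 of the 6 livers (up to 0.0828) and changed sign under other scalings, to -0.034 with median-ratio scaling and -0.14 with quantile normalization.

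A list of 83 other genes of the pathway was read in the same fit. The table held 81 of them and 68 were tested. Of these, 13 were called higher and 1, *Gstp3*, lower (19.1% and 1.47%, against 8.17% and 4.52% of all genes tested), and the median log2 fold change was 0.32. The lower count was 4 in place of 1 with median-ratio scaling, with quantile normalization and with a pseudocount of 0.1, where all genes gave 751, 812 and 999 lower calls in place of 598. The supply and turnover genes gave 7 of the 13 higher calls, out of 15 tested. By the adjusted p, 11 were higher and 3 lower, against 37.4% and 19.6% of all genes tested. *Chac1* was lower under 2-fold on the log scale, from 2.10 ± 0.36 FPKM in WT to 0.753 ± 0.154 FPKM in mutant livers (SD, n = 3). *Mat1a* and *Anpep* were also lower under 2-fold, with log2 fold changes of -0.47 and -0.55. *Ggt6*, a member of the γ-glutamyltransferase family, had 0.257, 0.197 and 0.448 FPKM in WT and 10.9, 6.18 and 6.57 FPKM in mutant livers, a log2 fold change of 2.74 (SE 0.21, limma adjusted p = 9.95e-05). It was low in all WT livers and above 6 FPKM in all mutant livers. *Gnmt*, which spends S-adenosylmethionine on glycine, had 246 ± 29.1 FPKM in WT and 1033 ± 3.88 FPKM in mutant livers (SD, n = 3), a log2 fold change of 2.07. *Cbs*, the enzyme that commits homocysteine to cysteine, had 17.3 ± 0.597 and 61.03 ± 2.25 FPKM, a log2 fold change of 1.76. *Oplah* and *Ggct*, enzymes of 5-oxoproline and γ-glutamyl turnover, had log2 fold changes of 1.93 and 1.34.

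Of 20 other NRF2 target and NADPH supply genes tested, 5 were called higher and 0 lower, against 8.17% and 4.52% of all genes tested. By the adjusted p, 13 were higher and 1 lower, against 37.4% and 19.6%. The lower gene, *Akr1b8*, had 6.46 ± 1.13 FPKM in WT and 3.10 ± 0.37 FPKM in mutant livers (SD, n = 3), under 2-fold on the log scale (-0.86). *Me1*, malic enzyme, a source of NADPH, had 4.78 ± 0.256 FPKM in WT and 25.8 ± 0.750 FPKM in mutant livers (SD, n = 3), a log2 fold change of 2.22. *Ugdh*, which makes UDP-glucuronate, had 1.44 ± 0.0824 and 10.3 ± 0.769 FPKM (2.21 on the log2 scale), and the conjugate exporter *Abcc3* had 4.40 ± 0.234 and 23.7 ± 1.20 FPKM (2.19). *Taldo1*, transaldolase, had a log2 fold change of 1.32. In these 4 genes, named for their large change, the groups did not overlap. The same held for 66.0% of all genes tested. Of 10 partners and regulators of NRF2 tested, 0 were called by limma at both thresholds, against 12.7% of all genes tested. By the adjusted p, 4 of the 10 were higher under 2-fold, near the 37.4% of all genes that were higher. At an unadjusted p below 0.05 the counts were 4 higher and 0 lower. Of 11 other thioredoxin, peroxiredoxin and superoxide dismutase genes, 0 were called by limma. Under 2-fold, 3 were higher and 4 lower, with the same counts at an unadjusted p below 0.05. Among all genes tested, 37.4% were higher and 19.6% lower by the adjusted p. Of 8 other peroxidases, glutaredoxins and glyoxalases, 1 was called higher, against 8.17% of all genes tested. Under 2-fold, 2 more were higher and 2 lower (*Gpx7* and *Gpx8*). Of 4 other glutathione transferases *Gstp3* was the only call, against 12.7% of all genes called in either direction.

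**Figure D5:**
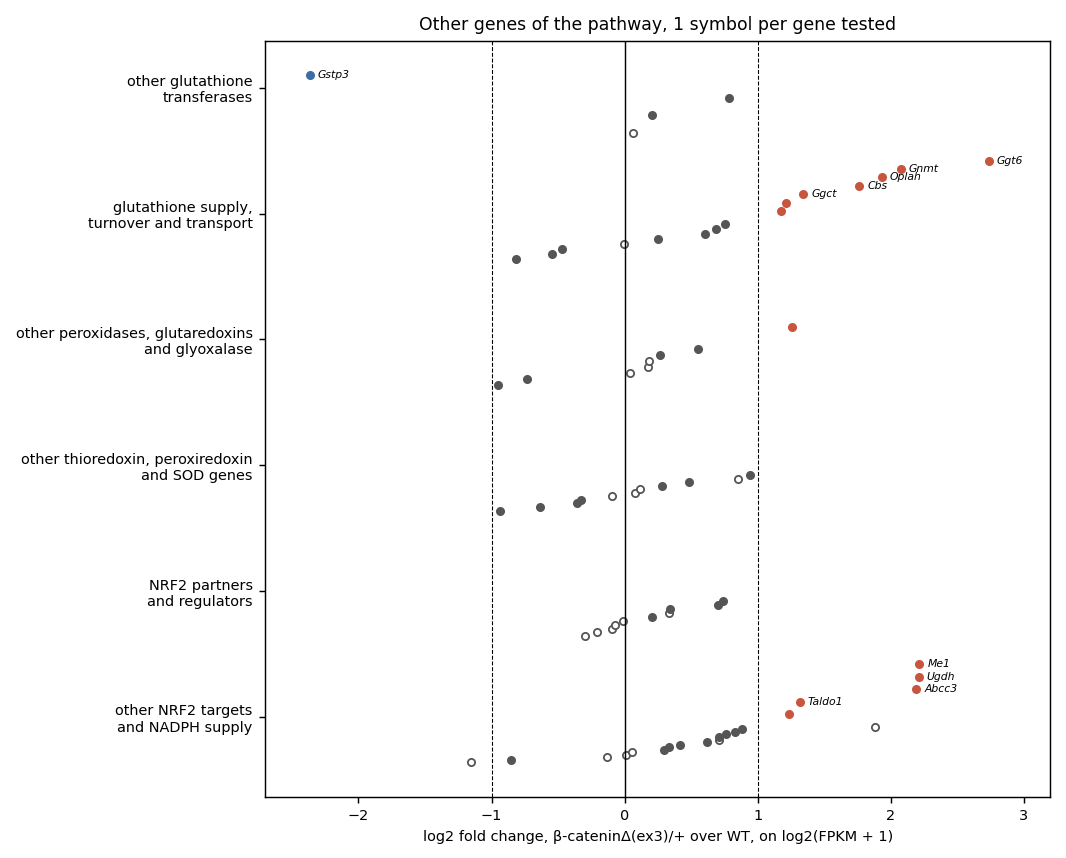
Log2 fold change (β-cateninΔ(ex3)/+ over WT, on log2(FPKM + 1)) of the 68 other pathway genes tested, 1 symbol per gene, in 6 lists; dashed lines mark a 2-fold change, red and blue the 13 genes called higher and the 1 called lower, grey those with an adjusted p below 0.05 under 2-fold and open symbols those that did not pass. Higher calls lie mainly among the supply and turnover genes (7) and the NRF2 target and NADPH genes (5); the 10 largest calls are named.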

How the data were processed

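Per the labels, total RNA of 6 livers (3 WT, 3 β-cateninΔ(ex3)/+) was poly(A)-selected, made into strand-marked libraries with dUTP and sequenced as paired ends on a NovaSeq instrument. The submitters' processing notes name cutadapt 1.9, HISAT2 2.0.4, StringTie 1.3.4d, DESeq2 and edgeR; the build and annotation are not given in the sources used here, but 28911 of the 31950 genes have the start and end of GENCODE M21 (GRCm38), as have 42 of the 48 members. The authors deposited 1 table of FPKM, with a column for each liver; 0 sample columns were left unused. FPKM keep no counts, so no count test was run and no counting interval is given. Steps in the low values put the mutant libraries at 0.689 to 0.794 of the WT depth. Over the 6 libraries, 26.6% to 35.2% of low values lay on such steps, against 4% by chance at a fixed depth. The depth with the largest share was chosen for each library, so 4% understates the share by chance.

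The log2(FPKM + 1) of the 13243 genes with a mean of at least 0.5 FPKM was modelled by genotype in R 4.3.3 with limma 3.58.1, its eBayes step allowing a trend with level, with Benjamini-Hochberg adjustment over all of them; genes were called at an adjusted p below 0.05 and a fold change of at least 2. The script was tested on simulated data. Livers were grouped by genotype label and all 6 entered the fit. Nothing further is said of the mice. The p-values set the difference of group means against the spread between these 3 livers per group, moderated over all genes tested. Since sex and fetal gene expression also differ between the groups, the p-values do not single out genotype. Among 1854 genes with a mean of at least 20 FPKM, the median coefficient of variation was 4.50% in WT and 3.31% in mutant livers. Values per liver are given for every called member and for *Nfe2l2*, *Keap1*, *Gclc*, *Gclm*, *Gss*, *Gsr* and *Nqo1*. Of the other pathway genes, the 10 called with the largest change are named, as are some that were lower under 2-fold. Members and lists were chosen with earlier results of these data known. Shared sequence was measured as the share of 100-base stretches of the longest GENCODE M21 coding transcript that occur in another gene. Motifs were searched in RefSeq promoter windows with Python 3.11.15. Alternatives were a pseudocount of 0.1, no filter, a filter of 1 FPKM, median-ratio scaling, quantile normalization, eBayes without trend, a replicate block, a log2 fold change of 1.5 and each liver left out in turn.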

Additional observations from a re-analysis of the deposited data

How the results depend on the processing

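Over 609 recomputed values of single members, 574 kept their direction and whether the gene was called, 12 changed sign, 16 lost and 7 gained a call. With no filter, a filter of 1 FPKM, eBayes without trend or a replicate block, the log2 fold change of a tested member cannot move. Only its adjusted p could change there, so the direction was fixed in advance for part of the 574. By the adjusted p alone, 25 values lost the threshold (in 6 members: *Gsta1*, *Mgst3*, *Gss*, *Gpx1*, *Keap1* and *Sod2*) and 7 gained it (in 4: *Gsta4*, *Gstt2*, *Ephx1* and *Prdx2*). The cause of a change was not tested unless the setting itself gives it. A pseudocount of 0.1, which compresses low genes less, gave 2705 calls among all genes (1706 higher, 999 lower) and 4 lower among the other pathway genes. Median-ratio scaling and quantile normalization, which lower the median of all genes, left 9 and 8 higher members and gave 4 lower calls each among the other pathway genes. A log2 fold change of 1.5 left 759 calls among all genes (521 higher, 238 lower), 10 members (9 higher, 1 lower) and 8 other pathway genes (7 higher). Leaving out single livers gave 13 to 16 higher and 2 lower members each time, and 1 to 2 lower other pathway genes (2 without mutant replicate 1 or 3). Signs changed in *Gsta4* (-0.042 to 0.022 over the livers left out: 0.017 without WT replicate 2, 0.0066 without WT replicate 3, 0.022 without mutant replicate 1), *Gstt2* (-0.013 with median-ratio scaling, -0.088 with quantile normalization), *Gclm* (-0.11 without WT replicate 3, 0.65 without WT replicate 1), *Ephx1* (-0.19 and -0.27 with the 2 scalings, -0.0045 without WT replicate 3, -0.018 without mutant replicate 1, 0.029 without mutant replicate 2) and *Sod2* (-0.034 and -0.14 with the 2 scalings). The ratio of summed means was 4.48 for GST mu, 1.73 for alpha and 1.70 for theta with median-ratio scaling. Same-numbered livers did not deviate together (correlations of -0.039, -0.013 and 0.15 over 1854 genes), so the numbers only name the livers; with the replicate number as a block 14 members were higher and 2 lower, of 1673 calls among all genes, and *Sod2* missed the adjusted p (0.0684). FPKM without counts limit what can be said of members near 1 FPKM (*Gsta1*, *Mgst2*, *Cbr3*) or below (*Ggt1*).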
